A study of Mus musculus with 14 samples.

Results

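T cells read antigen through the T cell receptor, whose antigen-binding chains (alpha and beta, or gamma and delta) sit in the membrane with the CD3 gamma, delta and epsilon chains and the CD247 zeta chain. The co-receptors CD4 and CD8 bring the kinase LCK to the engaged receptor, LCK phosphorylates the CD3 and zeta tails, and the scaffold receptors CD5 and CD6 tune the signal. Mouse skin holds gamma-delta T cells in the epidermis and alpha-beta T cells in the dermis, and lymph nodes hold alpha-beta T cells beside B cells. The genes described here are 10 of these, Cd3d, Cd3e, Cd3g, Cd247, Trac, Lck, Cd6, Cd5, Cd4 and Cd8a, chosen by symbol from the 35328 gene symbols of the count table. All 10 passed the filter on low counts and were among the 20940 genes tested.

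Polyadenylated RNA of neck skin from C57BL/6J-background mice labelled female was sequenced in 14 libraries of 1 mouse each, by the series' design text. The cKO group (3 libraries) came from Pdgfra-CRE/Il4ra fl/fl mice, in which Cre recombinase deletes the interleukin 4 receptor alpha gene in Pdgfra-expressing cells such as fibroblasts, and not by design in T cells. The fl/fl group (3 libraries) came from Il4ra fl/fl mice without Cre. Both were aged 6 to 7 weeks and received MC903 (calcipotriol), a vitamin D analogue whose topical use gives mice a dermatitis, at 1 nmol in 100 µL a day for 6 days, with no injections. The MAR1 group (3 libraries) came from wild-type mice aged 6 weeks given the same MC903 course and 20 µg per injection of MAR1, an antibody to the IgE receptor alpha chain used against basophils and also binding mast cells. The isotype group (3 libraries), from mice aged 6 weeks, had MC903 and 20 µg injections of an isotype control antibody. In the MAR1 and isotype groups 3 injections preceded MC903. The untreated group (2 libraries) came from wild-type mice aged 6 weeks. The labels name no vehicle for this group, and a suffix is all that sets the names of its libraries apart.

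Levels are in CPM, the usual scaling of counts to library size, here with a correction for library composition, and group levels are mean ± SD. Differences are log2 fold changes ± SE from edgeR's quasi-likelihood test on all 14 libraries, and a gene was called where its p, adjusted by Benjamini-Hochberg over all genes tested, was under 0.05. In bulk tissue, fewer T cells and less RNA per T cell cannot be told apart.

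Several libraries stood apart before any comparison. Library totals were 16501941 to 30830666 counts in cKO, 45126343 to 48004732 in fl/fl, 5781757 to 10625876 in MAR1, 34330783 to 35595261 in isotype and 37521440 to 55299671 in untreated skin. Keratinocyte markers (6 genes) summed to between 3152 and 39338 CPM, so skin RNA was present in every library. Fl/fl libraries 1 and 2 also held salivary gland transcripts, with a list of 7 genes (6 tested, and Smgc at 0 in every library) summing to 1093 and 15163 CPM, against 7.49 CPM in fl/fl library 3 and at most 14.2 CPM in cKO. The list reached at most 14.7 CPM in isotype and 3.43 CPM in MAR1, and stood at 63.7 and 73.5 CPM in untreated skin. Olfactory and vomeronasal receptor genes, which encode chemosensory receptors of the nose, took 3.86% to 9.29% of counts in MAR1 against 0.269% to 0.439% in isotype, and 0.467% to 2.58% in cKO against 0.0479% to 0.0768% in fl/fl.

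The CD3 genes Cd3g, Cd3d and Cd3e follow one another on mouse chromosome 9, with no other protein-coding gene between them. Their upstream sequences are shown because Cd3d, the middle gene, was below both others in CPM in every library except fl/fl libraries 1 and 2. Per kilobase of exon, Cd3d was above Cd3e in some of those libraries as well, such as cKO library 2 (2.28 against 1.45). Each is the part of the RefSeq promoter window (build GRCm38.p6, 5′ to 3′ on the gene's own strand) that lies before the first annotated transcript start. Capitals mark matches, on either strand, to an E-box (CANNTG), an ETS core (AGGAAG) or a GATA motif (AGATAA).
Cd3g, chr9:44980432-44980681, minus strand: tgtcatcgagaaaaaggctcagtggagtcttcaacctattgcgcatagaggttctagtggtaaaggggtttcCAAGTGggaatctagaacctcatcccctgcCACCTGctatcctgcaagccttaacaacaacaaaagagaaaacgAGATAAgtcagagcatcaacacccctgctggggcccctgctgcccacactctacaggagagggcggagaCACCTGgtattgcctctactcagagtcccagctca
Cd3d, chr9:44981536-44981768, plus strand: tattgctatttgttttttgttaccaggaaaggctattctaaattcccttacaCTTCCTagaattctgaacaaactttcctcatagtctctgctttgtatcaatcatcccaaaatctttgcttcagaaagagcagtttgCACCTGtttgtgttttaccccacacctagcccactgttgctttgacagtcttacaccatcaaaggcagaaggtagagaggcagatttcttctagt
Cd3e, chr9:45009664-45009861, minus strand: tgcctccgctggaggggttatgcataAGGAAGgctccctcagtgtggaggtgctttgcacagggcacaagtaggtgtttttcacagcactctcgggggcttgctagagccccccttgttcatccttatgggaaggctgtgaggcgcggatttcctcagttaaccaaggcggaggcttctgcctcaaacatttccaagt

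The printed Cd3g stretch held 3 E-box matches and 1 GATA match, the Cd3d stretch 1 E-box and 1 ETS match, and the Cd3e stretch 1 ETS match. None of these matches overlapped another. Full windows of 300 bases were found for 7 of the 10 members (not for Trac, Cd6 or Cd4), 8 windows in all since Lck has 2. An E-box was in 8 of the 8 windows and in 72.3% of all 32851 windows of the table, and the ETS core was in 6 of 8 against 35.4% of all. The GATA motif was in 1 of 8 (11.2% of all), the RUNX motif TGTGGT in 1 of 8 (16.8% of all) and the TCF/LEF motif CTTTGAA in 0 of 8 (5.14% of all). A match is a description of letters in these windows only.

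The 3 fl/fl libraries held both the highest and the lowest levels of these T cell genes. The summed level of the 10 members was 78.1, 49.8 and 101 CPM in the cKO libraries, against 1217, 213 and 15.7 CPM in the fl/fl libraries. It was 147, 219 and 302 CPM in MAR1, against 35.7, 26.3 and 34.3 CPM in isotype, and 80.1 and 69.6 CPM in untreated skin. Of the 10 members, 9 had their highest level of all libraries in fl/fl library 1, and 7 had their lowest in fl/fl library 3. The exception at the top was Cd3e, which was highest in MAR1 library 3. Cd3e and Cd247 overlap other annotated gene models and the use of strand in counting is not given in the sources used here, so reads of those models cannot be separated from theirs.

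**Figure D1:**
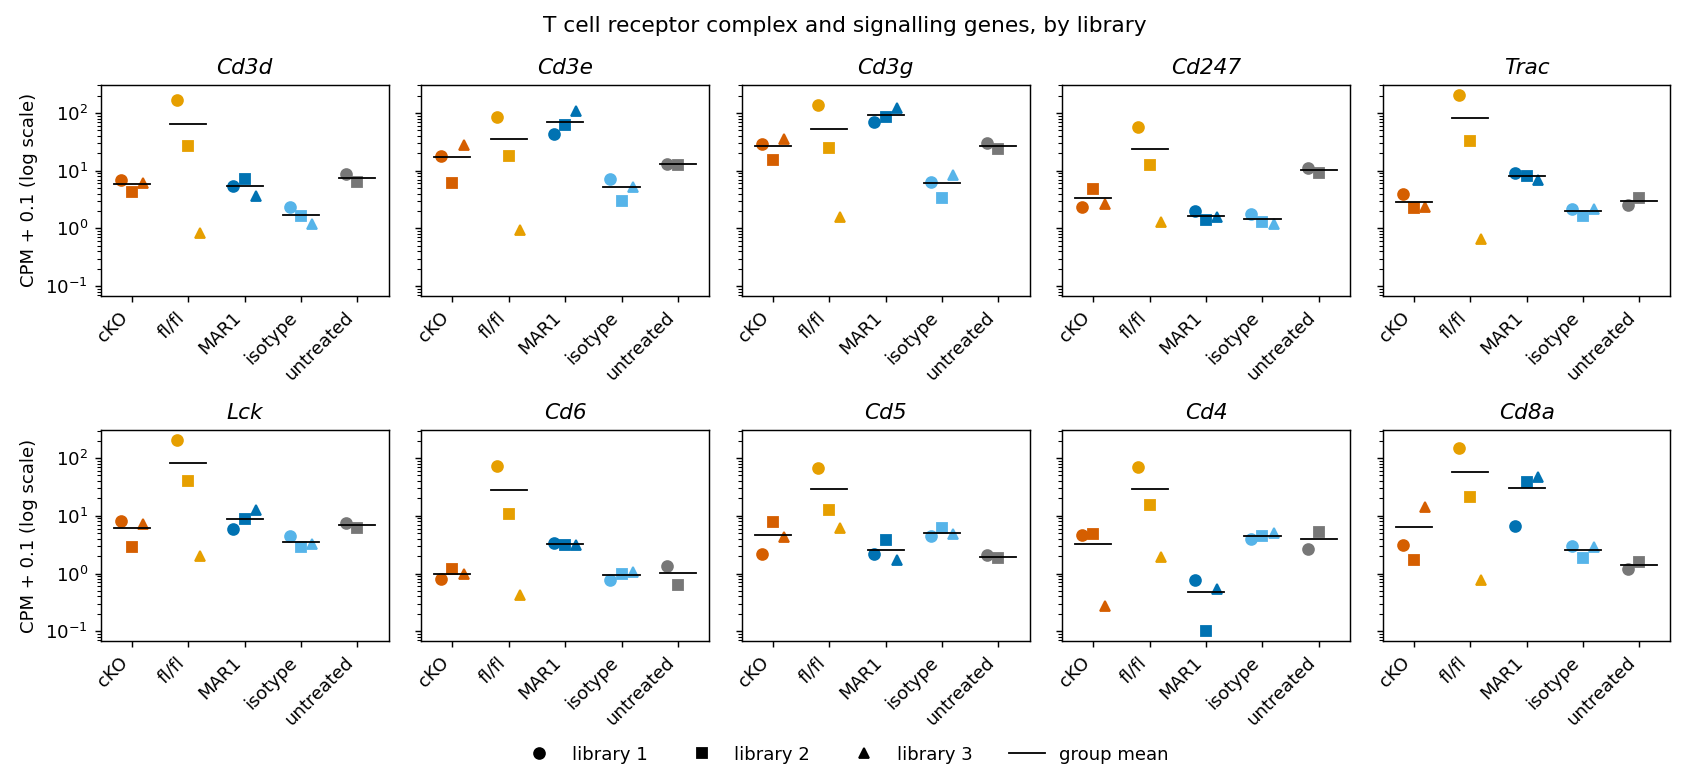
Level of each of the 10 genes in each of the 14 libraries, in CPM plus 0.1 on a log axis, with 1 panel per gene, 1 marker per library and a line at the group mean. Fl/fl libraries 1 and 2 lie above fl/fl library 3 in every panel, Cd3e and Cd3g are high in all MAR1 libraries, and Cd4 is near 0 in MAR1.

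The cKO and fl/fl groups address whether loss of Il4ra in Pdgfra-expressing cells changes T cell transcripts in MC903 skin. In the fit of all libraries 6 of the 10 members were lower in cKO and none was higher, where 5.98% of all genes tested were called lower. The members' median log2 fold change was -3.18, beside 0.03 over all genes tested. The libraries of the groups overlapped for all 10 members (29.4% of genes tested showed no overlap).

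Trac, the constant region of the receptor's alpha chain, had 3.86, 2.12 and 2.23 CPM in the cKO libraries, against 209, 33 and 0.56 CPM in the fl/fl libraries. Its log2 fold change was -4.88 ± 1.25 (adjusted p = 0.018, edgeR). The cKO values lay between the lowest and the next fl/fl library. Cd3d, the CD3 delta chain, had 6.9, 4.14 and 5.99 CPM in cKO, against 166, 27.1 and 0.737 CPM in fl/fl (log2 -3.51 ± 1.13, adjusted p = 0.047, edgeR). Cd247, the zeta chain, had 2.26, 4.8 and 2.59 CPM in cKO, against 57.8, 12.3 and 1.21 CPM in fl/fl (log2 -2.88 ± 0.9, adjusted p = 0.04, edgeR). For both, fl/fl libraries 1 and 2 were above all cKO libraries and fl/fl library 3 was below them.

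Lck, the kinase that starts receptor signalling, had 8.03, 2.84 and 7.05 CPM in cKO, against 203, 39.5 and 1.95 CPM in fl/fl (log2 -3.77 ± 1.06, adjusted p = 0.028, edgeR). Cd6, a scaffold receptor, had 0.707, 1.08 and 0.881 CPM in cKO, against 73.9, 10.5 and 0.324 CPM in fl/fl (log2 -4.98 ± 1.23, adjusted p = 0.014, edgeR). Cd5, its relative that restrains receptor signalling, had 2.12, 7.57 and 4.17 CPM in cKO, against 67.2, 12.5 and 6.08 CPM in fl/fl (log2 -2.63 ± 0.76, adjusted p = 0.029, edgeR). Cd5 in fl/fl library 3 lay inside the cKO range, while Lck and Cd6 were lowest there.

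The remaining 4 members did not pass. The co-receptor gene Cd4 averaged 3.19 ± 2.6 CPM in cKO and 29.4 ± 37 CPM in fl/fl (n = 3 each, log2 -3.19 ± 1.21, adjusted p = 0.08, edgeR). Cd8a, the CD8 alpha chain, averaged 6.34 ± 7 CPM in cKO and 56.8 ± 80 CPM in fl/fl (log2 -3.18 ± 1.32, adjusted p = 0.11, edgeR). Cd3e, the epsilon chain, had 17.6, 5.91 and 27.7 CPM in cKO, against 86.6, 17.6 and 0.855 CPM in fl/fl (log2 -1.04 ± 1, adjusted p = 0.49, edgeR). Cd3g, the gamma chain, had 28.9, 14.9 and 35.8 CPM in cKO, against 135, 24.3 and 1.47 CPM in fl/fl (log2 -1.01 ± 0.94, adjusted p = 0.47, edgeR). Fl/fl library 2 lay inside the cKO range for both.

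This decrease rested on fl/fl libraries 1 and 2. Without both of them, the fl/fl arm was library 3 alone, which is assumed to vary like the other groups, and 9 of the 10 members had a positive log2 fold change, with a median of 2.24. Cd3e (log2 4.62 ± 1.02) and Cd3g (log2 4.47 ± 0.76) then lay furthest above 0. Without fl/fl library 1 alone 0 members were called by edgeR (1 at an unadjusted p under 0.05), where 15% of all genes were called, 315 of them lower. DESeq2 on all libraries called 8 members, and 29.4% of the genes it tested. The count of 6 was also 0 without cKO library 3 (7 at an unadjusted p under 0.05), 2 without cKO library 1, 2 without cKO library 2 and 3 without untreated library 2. Only these groups in the fit (0 members called, 6 at an unadjusted p under 0.05) or the receptor gene share as a covariate (0 called, 3 unadjusted) ended the calls as well. Over all genes the covariate left 14 calls of 3908, and the fit of these groups alone 1410. Genes called lower numbered 163 without cKO library 3, 851 without library 1 and 587 without library 2, against 1252 in the main fit. Without untreated library 2 they numbered 468.

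B cell and lymph node genes were high and low in the same fl/fl libraries as the members. The B cell list (11 of 11 genes tested) summed to 40, 23.2 and 58.5 CPM in cKO, against 2614, 527 and 6.84 CPM in fl/fl, and 7 of its genes were called lower in cKO. Ighd and Cd79b, parts of the B cell receptor, had log2 fold changes of -8.84 and -7.48, and Fcmr and Pou2af1 of -5.87 and -4.89. The list of lymph node stroma and follicle genes (7 of 7 tested) summed to 307, 172 and 159 CPM in cKO, against 1483, 479 and 65.2 CPM in fl/fl. Glycam1, made by the high endothelial venules through which lymphocytes enter lymph nodes, stood at 0, 0.294 and 0.529 CPM in cKO, against 514, 155 and 0 CPM in fl/fl (log2 -9.77, adjusted p = 0.011, edgeR). Muscle genes (8 of 8 tested), which were high in fl/fl library 3 as well, summed to 2674, 26.3 and 292 CPM in cKO, against 56193, 15363 and 9819 CPM in fl/fl. In untreated skin they summed to 1773 and 12242 CPM. With the B cell share of counts as a covariate, 0 of the 6 lower calls remained, and Cd3e and Cd3g were called higher in cKO (log2 2.11 and 2.08). Over all genes that fit called 3907 higher and 1466 lower, against 2656 and 1252 in the main fit. The share went with the members' level in fl/fl, so this covariate and their level there cannot be told apart.

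Of 9 genes of recirculating lymphocytes, 4 were called lower in cKO and none higher (median log2 -1.68). Among them were Ccr7, a chemokine receptor that guides lymphocytes into lymph nodes (log2 -6.21), and the regulators Tcf7 (-3.75) and Satb1 (-2.4). Ccr7 stood at 0.955, 1.24 and 0.588 CPM in cKO, against 176, 32.9 and 0.767 CPM in fl/fl. Immature thymocyte genes stayed low in fl/fl library 1, with a list sum of 2.45 CPM, Ptcra at 0 and Rag1 at 0.245 CPM. Over the fl/fl libraries Arpp21 stood at 0.926 to 2.27 CPM and Dntt at 0.059 to 1.28 CPM. Rag2 was at 0 in every library, so it sets none of them apart. Fl/fl libraries 1 and 2, the highest of their group for the T cell genes, were also the libraries with the most salivary gland transcripts.

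**Figure D2:**
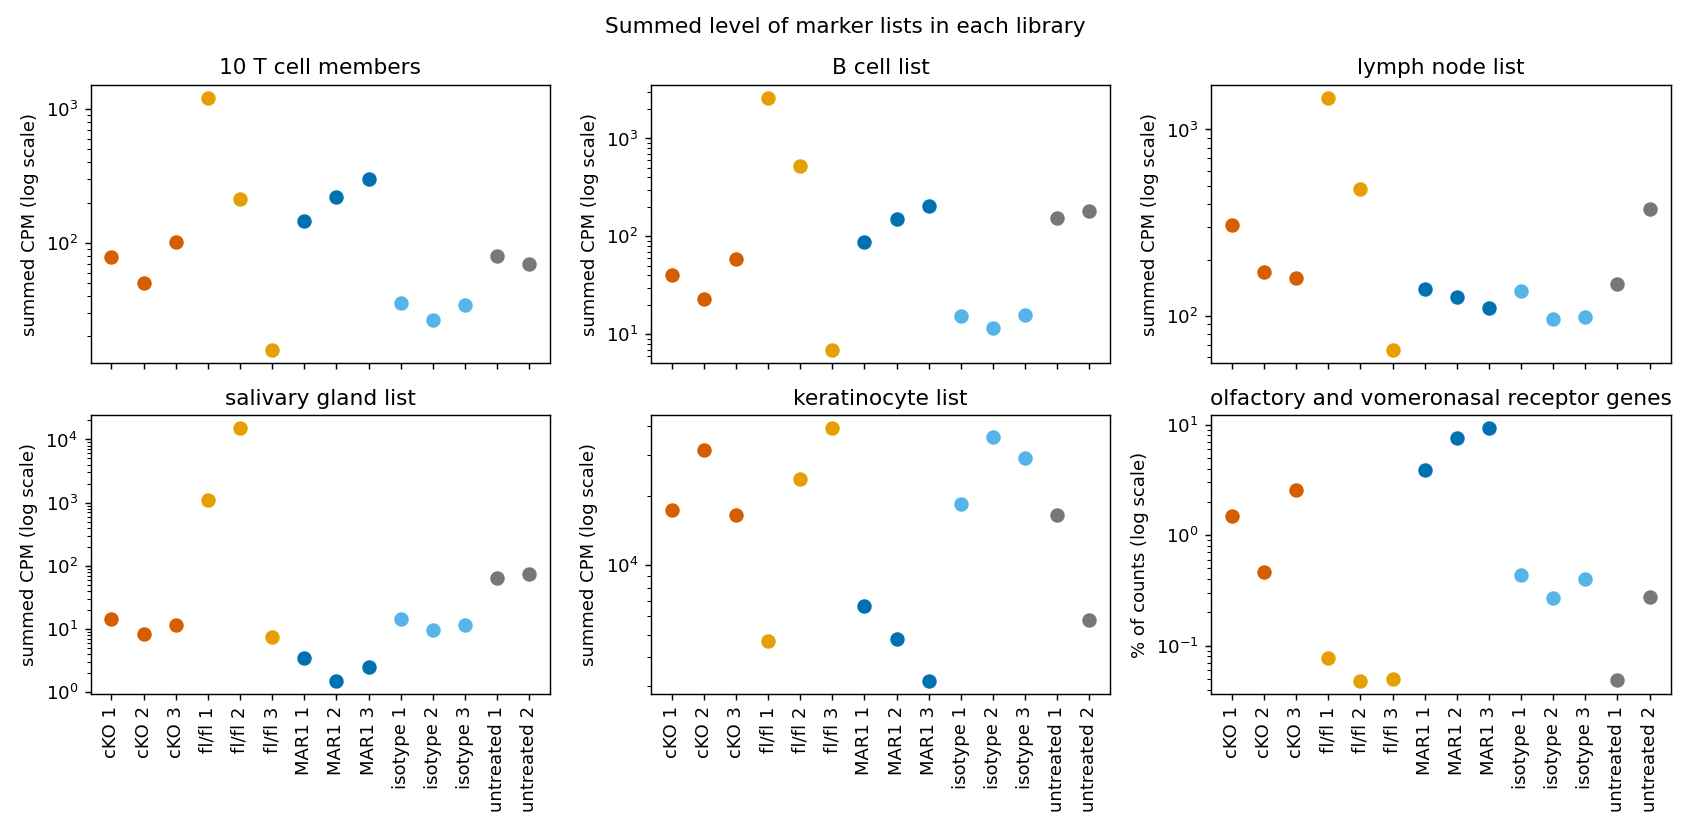
Summed level of 5 gene lists in CPM, and the share of counts in olfactory and vomeronasal receptor genes in percent, for each of the 14 libraries on log axes. Fl/fl library 1 is highest for the T cell, B cell and lymph node lists and fl/fl library 2 for the salivary gland list, while the 3 MAR1 libraries are highest for the receptor genes.

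Other genes of the receptor pathway were counted in the same comparison. Of 23 other signalling proteins tested, 8 were lower in cKO and none higher (median log2 -2.04). Sh2d2a, an adaptor that binds LCK, had a log2 fold change of -4.5, with Csk, the kinase that holds LCK inactive, at -2.06, and the transcription factor gene Nfatc2 at -1.47. Unlike the members, Csk did not overlap between the groups, at 45.2, 46.2 and 17.2 CPM in cKO, against 251, 125 and 77.3 CPM in fl/fl. Of 13 other T cell surface receptors, Cd2, an adhesion receptor (-4.22), and Cd7 (-2.7) were lower, with a list median of -2.73. Of 6 other receptor constant regions none was called by edgeR (Trbc1 at -2.1 and Trbc2 at -1.11, adjusted p = 0.15 for each). Trbc1 and Trbc2 are near-identical copies, so their counts cannot be divided between them with certainty.

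The MAR1 and isotype groups address whether the antibody changed T cell transcripts in MC903 skin. Cd3e, Cd3g and Cd8a were higher and Cd4 was lower in the libraries labelled MAR1. These 4 of 10 calls compare with 49.1% of all genes tested that were called in this comparison, 22.6% higher and 26.5% lower, so the members' share was near the background. The members' median log2 fold change was 1.8, beside 0 over all genes tested, and RLE scaling moved the median of all genes by 0.57 without turning any member. Under RLE scaling 6347 genes were called higher and 3645 lower, against 4724 higher and 5548 lower under the main TMM scaling, and 3 members were called (Cd3e, Cd3g and Cd8a). For 9 of the 10 members the libraries of the groups did not overlap, which held for 68.6% of genes tested.

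Cd3g had 70.2, 85.5 and 120.0 CPM in MAR1, against 6.24, 3.28 and 8.43 CPM in isotype. Its log2 fold change was 3.94 ± 1.05 (adjusted p = 0.0089, edgeR). Cd3e had 42.3, 62.6 and 107 CPM in MAR1, against 7.18, 2.9 and 5.1 CPM in isotype (log2 3.8 ± 1.11, adjusted p = 0.014, edgeR). Every MAR1 library was above every isotype library for both genes. Cd8a had 6.43, 39 and 46 CPM in MAR1, against 2.88, 1.73 and 2.74 CPM in isotype (log2 3.63 ± 1.35, adjusted p = 0.041, edgeR). Cd8b1, the other CD8 chain, went with it at 6.43, 19.3 and 22.6 CPM in MAR1, against 1.4, 0.69 and 1.43 CPM in isotype, and did not pass (log2 3.77, adjusted p = 0.06, edgeR).

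Cd4 had 0.686, 0 and 0.45 CPM in MAR1, against 3.93, 4.43 and 4.9 CPM in isotype (log2 -3.52 ± 1.36, adjusted p = 0.046, edgeR). The MAR1 values rest on 8, 0 and 3 deposited counts, and 3 counts are 0.257 to 0.45 CPM at their depths. Trac had 8.83, 8.14 and 6.9 CPM in MAR1, against 2.11, 1.52 and 2.1 CPM in isotype (log2 2.06 ± 1.13, adjusted p = 0.14, edgeR). Cd3d had 5.32, 7.13 and 3.6 CPM in MAR1, against 2.25, 1.52 and 1.08 CPM in isotype (log2 1.73 ± 1.09, adjusted p = 0.19, edgeR). Lck stood at 8.86 ± 3.3 CPM in MAR1 and 3.48 ± 0.86 CPM in isotype, Cd6 at 3.12 ± 0.19 and 0.846 ± 0.14 CPM, and Cd5 at 2.47 ± 1.1 and 5.01 ± 0.91 CPM (n = 3 each), and none of them passed. Cd247 overlapped between the groups, at 1.56 ± 0.3 CPM in MAR1 and 1.34 ± 0.32 CPM in isotype (log2 0.22 ± 0.89, adjusted p = 0.84, edgeR).

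The make-up of the T cell transcripts differed between libraries. The ratio of Cd3g to Cd3d, each in CPM per kilobase of exon, was 7.33, 6.65 and 18.5 in MAR1, against 1.54, 1.19 and 4.34 in isotype. It was 2.33, 2 and 3.31 in cKO, against 0.45, 0.499 and 1.11 in fl/fl, and 1.98 and 2.03 in untreated skin. The lowest ratios were those of fl/fl libraries 1 and 2. Cd3e and Cd3g together made up 64.6%, 60% and 69.7% of the members' summed CPM per kilobase in MAR1, against 31.3%, 20.7% and 34.8% in isotype. Those shares were 49.2%, 38.2% and 56.7% in cKO, against 11.6%, 12.9% and 14.8% in fl/fl, and 48.3% and 44.2% in untreated skin. Trac made up 41.4% and 38.7% in fl/fl libraries 1 and 2, and between 7.64% and 20.4% in all others.

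**Figure D3:**
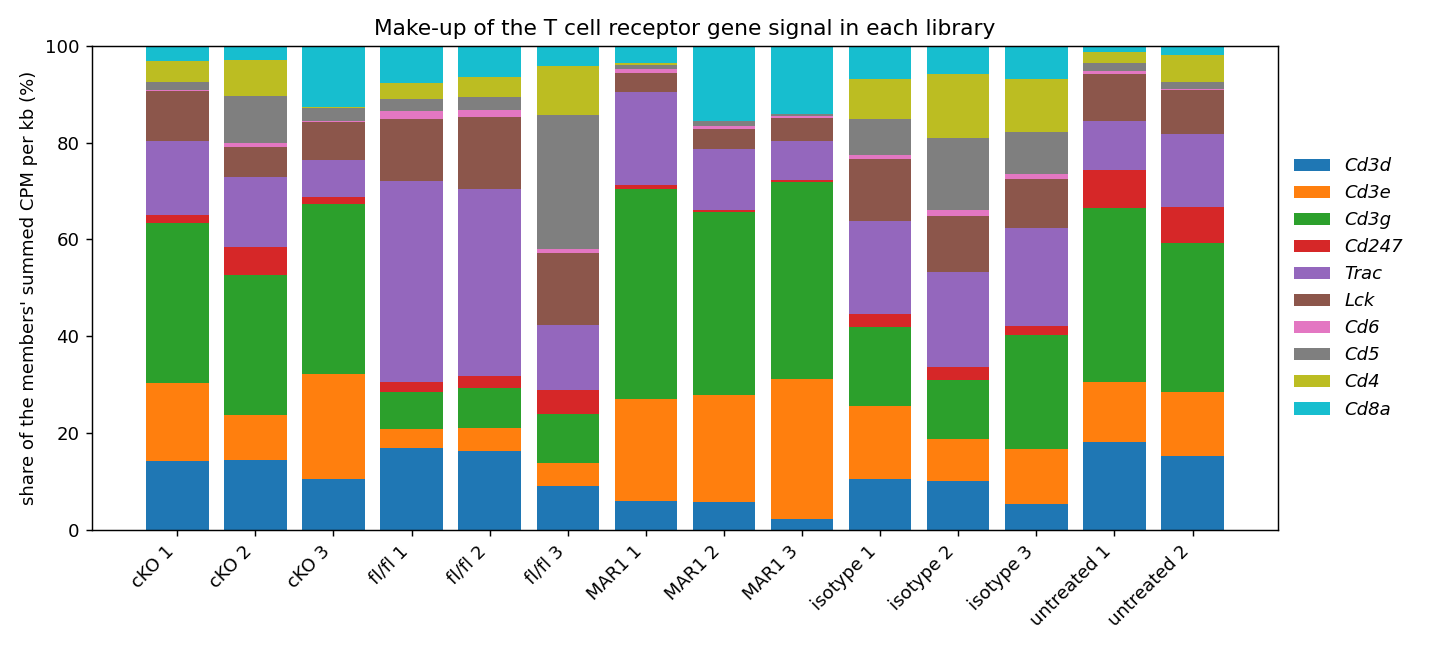
Share of each gene in the summed CPM per kilobase of the 10 genes, in percent, with 1 bar per library. Cd3e and Cd3g fill over 60% of the bar in MAR1 libraries 1 and 3 and 60% in library 2, against 11.6% to 14.8% in fl/fl, where Trac is the largest share in libraries 1 and 2.

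The share of receptor genes in the counts went with some of these values. It was 3.86%, 7.49% and 9.29% in MAR1 libraries 1, 2 and 3, the order in which Cd3e, Cd3g, Cd8a and Lck were placed. Within cKO it was highest in library 3 (2.58%), where Cd3e, Cd3g and Cd8a were also highest and Lck was not. Trac and Cd6 lay in the opposite order in MAR1, though Cd6 differed little (3.34, 3.01 and 3 CPM), and Cd3d and Cd5 were lowest in library 3. With that share as a covariate edgeR called 0 of the 10 members in MAR1 against isotype (0 at an unadjusted p under 0.05, and 7 by DESeq2 without the covariate), and it called 0 of all 20940 genes, so this loss is not particular to the members. Cd3g then had a log2 fold change of 1.98 ± 2.07 and Cd3e of 0.66 ± 2.11, and Cd8a (-1.34) and Lck (-0.85) turned round. The share and the groups do not overlap, so the covariate and the antibody cannot be told apart. The count of 4 was 2 without MAR1 library 2, MAR1 library 3, isotype library 1, isotype library 3 or either untreated library, 1 without isotype library 2 and 7 without fl/fl library 3. Over all genes 51.5% were called without fl/fl library 3, and 56.4% by DESeq2 on all libraries. Cd3g was called without any 1 of the 14 libraries, and Cd3e without any 1 except isotype library 2. With the B cell share as a covariate 4 members were again called, of which Cd3g and Cd4 were shared, while Cd3e (adjusted p = 0.073, edgeR) and Cd8a (adjusted p = 0.87, edgeR) lost their calls and Lck (log2 -1.35) and Cd5 (log2 -2.15) were called lower.

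Other genes of T cell lists lay on both sides. Among 6 other receptor constant regions 1 was higher and 2 were lower in MAR1 (median log2 -1.16). Among 10 tested genes of T cell fate regulators and effector cytokines 4 were higher and 1 was lower (median log2 2.35). Of 23 other signalling proteins 7 were higher and 6 lower in MAR1 (median log2 1.36). Prkcq, the protein kinase C of T cells, was higher (21.9, 64.3 and 93.4 CPM in MAR1, against 10.5, 9.75 and 10.4 CPM in isotype, log2 2.55). Fyn, a kinase related to LCK, was lower (log2 -2.63), as were Csk (-2.36) and the phospholipase gene Plcg1 (-1.56), which skin cells also express. Of 13 surface receptors, Trat1, a membrane adaptor of the receptor complex, was higher (16.1, 47.4 and 62.7 CPM in MAR1, against 4.22, 1.7 and 2.86 CPM in isotype, log2 3.84), as was Cd27, while Cd7 was lower (log2 4.06 and -3.13). The immature thymocyte genes Ptcra and Arpp21 were higher (log2 3.94 and 3.91), and Rag2 was at 0 in MAR1 as in every other library. B cell genes summed to 87.4, 151 and 204 CPM in MAR1, against 15.6, 11.6 and 15.7 CPM in isotype, with Cd79a (log2 4.77) and Ms4a1 (4.06) called higher and Cd79b at 1.54, 2.81 and 0.6 CPM in MAR1. Keratinocyte genes summed to 6675, 4776 and 3152 CPM in MAR1, against 18475, 36107 and 29159 CPM in isotype, and their part in the members' differences was not tested.

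The isotype and untreated groups describe the MC903 response of the antibody experiment, in which the isotype mice had also been injected. None of the 10 members passed in edgeR (1 at an unadjusted p under 0.05), where 3.07% of all genes tested were called. DESeq2 called 1 member, and 10.9% of all genes it tested. The median log2 fold change was -0.77, beside 0.11 over all genes tested. For 8 members the libraries did not overlap, which held for 48.8% of genes tested. Cd247 had 1.71, 1.21 and 1.11 CPM in isotype, against 11.1 and 9.12 CPM in untreated skin (log2 -2.91 ± 0.96, adjusted p = 0.13, edgeR), and it was the member called by DESeq2. Cd3d averaged 1.62 ± 0.59 CPM in isotype (n = 3) and 7.45 ± 1.6 CPM in untreated skin (n = 2), and Cd3g 5.98 ± 2.6 and 26.9 ± 5.1 CPM. Their log2 fold changes were -2.2 ± 1.16 and -2.17 ± 1.04, with adjusted p = 0.34 and 0.3 (edgeR). Trac stood at 1.91 ± 0.33 CPM in isotype and 2.84 ± 0.57 CPM in untreated skin, and Cd5, at 5.01 ± 0.91 and 1.87 ± 0.2 CPM, lay the other way. Only these groups in the fit gave 3 lower calls (Cd3d, Cd3g and Cd247), where that fit called 19.7% of all genes tested. With the B cell share as a covariate the calls lay the other way, with Trac (log2 2.84), Lck (1.79) and Cd8a called higher in isotype. That fit called 2.98% of all genes tested. The B cell list summed to 11.6 to 15.7 CPM in isotype, against 153 and 181 CPM in untreated skin. The cause of these differences was not tested.

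The 5 tested genes of the epidermal gamma-delta T cell list had a median log2 fold change of -4.09 between isotype and untreated skin. The list summed to 22.4 to 28.4 CPM in isotype, against 43.7 and 47.7 CPM in untreated skin. Trdc, the delta constant region, had 1.62, 0.518 and 1.49 CPM in isotype, against 26.8 and 14.5 CPM in untreated skin (log2 -4.09, adjusted p = 0.027, edgeR). It was the 1 gene called among the 5 tested of the epidermal gamma-delta T cell list, and it fell. Trgc1, a gamma constant region, had 2.08, 1.41 and 1.14 CPM in isotype, against 14.9 and 12.6 CPM in untreated skin (log2 -3.15, adjusted p = 0.1, edgeR). Trdv4, the delta variable segment of these cells, stood at 0.228, 0 and 0.0583 CPM in isotype, against 4.92 and 0.924 CPM in untreated skin. Jaml, an adhesion receptor of these cells, lay the other way, at 17, 25.9 and 23.4 CPM in isotype, against 6.21 and 9.52 CPM in untreated skin, and did not pass (log2 1.49, adjusted p = 0.12, edgeR). Klrk1, an activating receptor also found on natural killer cells, averaged 2.77 ± 0.66 CPM in isotype (n = 3) and 9.8 ± 6.8 CPM in untreated skin (n = 2), and did not pass either (log2 -1.82, adjusted p = 0.29, edgeR). Trdc was at 6.54, 5.42 and 1.94 CPM in cKO, against 12.4, 8.91 and 2.83 CPM in fl/fl, and at 0.0857, 0.703 and 1.35 CPM in MAR1. Each isotype library was below both untreated libraries for 6 members, Cd3d, Cd3e, Cd3g, Cd247, Trac and Lck, as it was for Trdc. Cd7 had 3.36, 1.55 and 2.25 CPM in isotype, against 23.4 and 14.9 CPM in untreated skin (log2 -3, adjusted p = 0.067, edgeR).

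Against the same untreated libraries, none of the members passed in fl/fl skin with edgeR (6 at an unadjusted p under 0.05), where 1.72% of all genes tested were called. DESeq2 called 6 members, and 10.8% of all genes it tested. All 10 log2 fold changes were positive, with a median of 3.35 beside 0 over all genes tested. The libraries did not overlap for 1 member, Cd5 (28% of genes tested). Cd5 had 67.2, 12.5 and 6.08 CPM in fl/fl, against 2.02 and 1.73 CPM in untreated skin (log2 3.93 ± 0.96, adjusted p = 0.054, edgeR). The comparison also crosses genotype and shares its untreated libraries with the one above. Without fl/fl libraries 1 and 2 the median was -2.12, and Cd3g (-4.23) and Cd3e (-3.96) had the lowest log2 fold changes.

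The MC903-treated control arms were set beside each other to show how far apart they lay. In fl/fl, 5 of the 10 members were higher than in isotype, where 1.25% of all genes tested were called higher, and none was lower. These were Cd3d (log2 5.32 ± 1.24), Cd247 (4.14 ± 0.96), Trac (5.4 ± 1.28), Lck (4.55 ± 1.1) and Cd6 (5.05 ± 1.23), with adjusted p between 0.036 and 0.04 (edgeR). Their median over the 10 members was 4.34, beside -0.1 over all genes tested. The libraries did not overlap for 1 member, Cd5, against 32.5% of genes tested, since fl/fl library 3 lay within or below the isotype range for the other 9. Trac, for example, had 209, 33 and 0.56 CPM in fl/fl, against 2.11, 1.52 and 2.1 CPM in isotype.

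Signalling partners of the members were among the genes called higher in fl/fl. Zap70, the kinase that docks on phosphorylated CD3 and zeta tails, stood at 67.3, 19.8 and 1.33 CPM in fl/fl, against 2.11, 0.805 and 1.66 CPM in isotype (log2 4.27). Lat, the adaptor it phosphorylates, stood at 256, 37.7 and 3.92 CPM in fl/fl, against 7.78, 6.41 and 7.06 CPM in isotype (log2 3.81). Both were among 4 of 23 signalling proteins called higher, with Grap2 and Csk. Of the B cell list 7 of 11 genes, of the lymph node list 4 of 7 and of the recirculating lymphocyte list 5 of 9 were also called higher in fl/fl. The count of 5 members was 0 in edgeR without any 1 of the 3 MAR1 or 3 isotype libraries (8 to 10 at an unadjusted p under 0.05), or without fl/fl library 1 (5 unadjusted) or library 2 (10 unadjusted). Most calls over all genes went too, leaving 44 to 261 of 1094 without a MAR1 library, 6 to 55 without an isotype library, and 77 and 0 when fl/fl library 1 or library 2 was left out. The count of members was 3 without cKO library 1 and 9 without fl/fl library 3, where 2.85% and 15.2% of all genes were called. DESeq2 called 9 on all libraries, and 17.3% of the genes it tested.

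**Figure D4:**
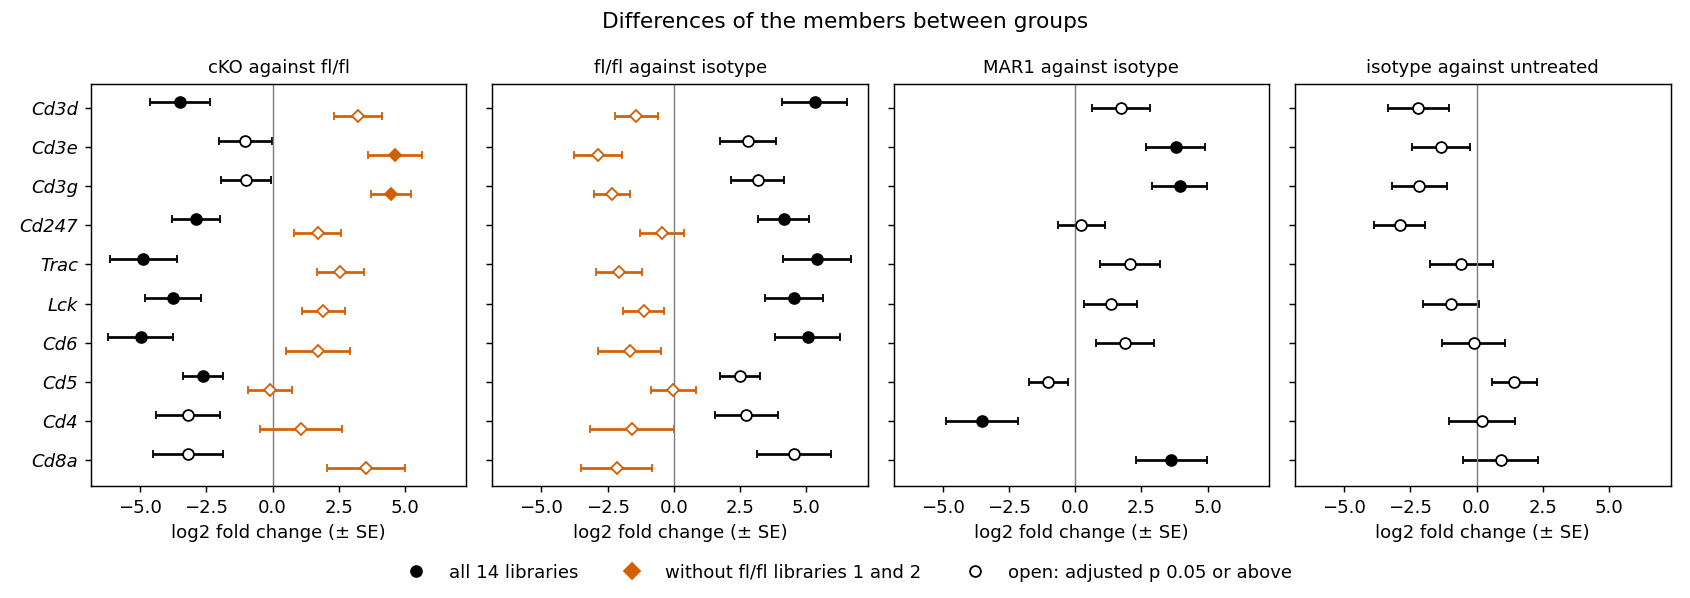
Log2 fold change ± SE of the 10 genes in 4 comparisons, as circles for all 14 libraries and, in both comparisons with fl/fl, as diamonds for the fit without fl/fl libraries 1 and 2. Filled symbols have an adjusted p under 0.05. In cKO against fl/fl the members lie left of 0 with all libraries and 9 of 10 lie right of 0 without these 2 libraries.

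The difference between the cKO effect and the MAR1 effect was tested as an interaction. For 5 of the 10 members the cKO effect was lower, where 1.82% of all genes tested were called lower, and none was higher. The median of the members was -5.03, beside 0.41 over all genes tested, which RLE scaling moved to -0.05. Under RLE scaling 437 genes were called higher and 467 lower, against 1284 higher and 382 lower under TMM, and 2 members were called lower (Trac and Cd6). This count was 0 in edgeR without fl/fl libraries 1 and 2 together (1 at an unadjusted p under 0.05, 8 by DESeq2 on all libraries), where the median was 0.71. It was also 0 without any 1 of MAR1 libraries 2 and 3, the 3 isotype libraries, cKO libraries 1 and 2 and fl/fl libraries 1 and 2 (5 to 8 unadjusted). Over all genes 1 of 1666 calls was left without any isotype library, 2 without MAR1 library 3, 235 without MAR1 library 2 and 129 without fl/fl library 2, against 502 and 1135 without cKO libraries 1 and 2 and 2020 without fl/fl library 1. The count was 2 without untreated library 1, 3 without untreated library 2 or cKO library 3, and 8 without fl/fl library 3. Over all genes 23.3% were called without fl/fl library 3, and 19.5% by DESeq2 on all libraries.

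By likeness to the members' mean log2 CPM over the 14 libraries, the 6 nearest genes among 15334 were Ltb, Tbc1d10c, Apol7c, Coro1a, Cd72 and Rac2. Their Pearson r was 0.93 to 0.97 and their Spearman rho 0.78 to 0.96, given as a description over libraries of which fl/fl libraries 1 and 2 lie apart from the rest. Ltb, a lymphotoxin chain made by lymphocytes, had 4.7 to 12.8 CPM in cKO, against 315, 50.2 and 0.796 CPM in fl/fl. It had 10 to 13.9 CPM in MAR1, against 1.24 to 2.16 CPM in isotype. Cd72, a B cell surface receptor, had 10.9 to 14.5 CPM in cKO, against 115, 40.3 and 7.23 CPM in fl/fl, and Coro1a, an actin regulator of white blood cells, had 60.3 to 77.4 CPM in cKO, against 1088, 264 and 29.4 CPM in fl/fl.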

How the data were processed

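The data are one table of expected counts per gene symbol for 14 libraries of mouse neck skin, deposited by the authors. Tools given in the submitters' processing notes are DESeq2 1.44.0 and Salmon 1.2.1, beside the build GRCm39, with no role for any of them. The estimated counts were rounded to whole numbers for this work, and every row carried a gene name. Library totals were 5781757 to 55299671 counts. Libraries were grouped by the labels, and the members and gene lists were chosen with earlier results of these data known.

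Genes with too few counts were removed with filterByExpr of edgeR 4.0.16 (R 4.3.3), which left 20940. Counts were scaled by TMM and fitted with 1 mean per group over all 14 libraries (9 residual degrees of freedom), and 6 contrasts were tested with the robust quasi-likelihood test. The scripts were tested on simulated data. CPM use the TMM library sizes, CPM per kilobase the union of exons in GENCODE M21, and motif searches the RefSeq promoter windows of GRCm38.p6, a different build from that of the counts. Genes named outside the members were up to 4 of each list with the smallest p in a comparison, and the 6 with the highest Pearson r to the members' mean log2 CPM (prior count 2) among genes of at least 1 CPM on average. Rag1 and Rag2, Cd79b in MAR1 and Trdc in cKO and MAR1 lie outside that rule and were chosen after their values were seen.

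No pair of libraries within a group agreed within counting noise. Replicate numbers did not pair the libraries, since same-numbered deviations correlated by at most 0.087. Alternatives were RLE scaling, DESeq2 1.42.0, no filter or a stricter one, only the groups compared, a replicate block, covariates for the B cell share or the receptor gene share, the untreated libraries summed, and libraries left out. Expected counts are estimates, and the floors (3 counts) cover counting error only. The SE and SD include the spread between libraries but treat the expected counts as known. P-values measure the spread between these libraries, which for the untreated pair may be technical.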

Additional observations from a re-analysis of the deposited data

Results flagged for a closer look

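The cKO effect (cKO against fl/fl) and the MAR1 effect (MAR1 against isotype) differed for 5 of the 10 genes in the test of the difference itself, with edgeR on all libraries. The cKO effect minus the MAR1 effect was -6.93 on the log2 scale for Trac (adjusted p = 0.033), -6.86 for Cd6 (adjusted p = 0.031), -6.81 for Cd8a (adjusted p = 0.046), -5.11 for Lck (adjusted p = 0.048) and -4.95 for Cd3g (adjusted p = 0.048). None of the 5 passed in both comparisons: Trac, Cd6 and Lck passed in cKO against fl/fl, and Cd8a and Cd3g in MAR1 against isotype. Without fl/fl libraries 1 and 2 none of the 5 was called by edgeR, and Trac, Lck and Cd3g turned positive (0.51, 0.58 and 0.55). The part of the other tissue in fl/fl libraries 1 and 2, and that of the receptor gene share in MAR1, was not tested for these differences beyond the covariate fits.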

How the results depend on the processing

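Counts of members called moved by over 1.5 times as follows, from 4 (MAR1 against isotype), 6 (cKO against fl/fl), 0 (isotype against untreated), 0 (fl/fl against untreated), 5 (fl/fl against isotype) and 5 (cKO effect minus MAR1 effect). Over all genes tested the main fit called 49.1%, 18.7%, 3.07%, 1.72%, 5.22% and 7.96%, in the same order. DESeq2 gave 7 for MAR1, 1 for isotype, 6 for fl/fl against untreated, 9 for fl/fl against isotype and 8 for the difference of effects. Its shares over all genes were 56.4%, 10.9%, 10.8%, 17.3% and 19.5%, in that order. Without a filter the counts were 2 for MAR1, 1 for fl/fl against untreated, 2 for fl/fl against isotype and 1 for the difference of effects. All genes then gave 36.2%, 1.44%, 3.24% and 5.64%, in that order. Only the groups compared gave 8 for MAR1, 0 for cKO, 3 for isotype, 0 for fl/fl against isotype and 2 for the difference of effects. Those fits called 67.6%, 8.28%, 19.7%, 2.75% and 5.08% of all genes tested, in that order. The receptor gene share gave 0 for MAR1, 0 for cKO and 0 for fl/fl against isotype, beside 0%, 0.0669% and 0.301% of all genes. The B cell share gave 2 for cKO, 3 for isotype, 5 for fl/fl against untreated, 1 for fl/fl against isotype and 0 for the difference of effects. With it 25.7%, 2.98%, 7.61%, 6.21% and 0.129% of all genes were called, in that order. Summing the untreated libraries gave 2 for MAR1 and 2 for the difference of effects, beside 47% and 7.89% of all genes. RLE scaling gave 2 for the difference of effects, beside 4.32% of all genes. Without both fl/fl libraries 1 and 2 the counts were 7 for MAR1, 2 for cKO, 2 for isotype, 2 for fl/fl against untreated, 0 for fl/fl against isotype and 0 for the difference of effects.

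With a replicate block 0 members were called for cKO, 0 for fl/fl against isotype and 0 for the difference of effects (7, 9 and 7 at an unadjusted p under 0.05), and Cd6 in isotype against untreated turned to 0.41. Over all genes the block left 14.6%, 0.836% and 2.56% called in those comparisons. The numbers did not pair the libraries: same-numbered deviations correlated between -0.24 and 0.087.

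Leaving out 1 library at a time gave 1 to 7 members called for MAR1, 0 to 8 for cKO, 0 to 1 for isotype, 0 to 5 for fl/fl against untreated (1 without fl/fl library 2, 5 without library 3), 0 to 9 for fl/fl against isotype and 0 to 8 for the difference of effects. Log2 fold changes that turned then ranged from -1.36 to 1.3 (Cd3e) and -1.36 to 1.45 (Cd3g) in cKO, positive without fl/fl library 1. In isotype against untreated they ranged from -0.21 to 0.63 (Cd6), -0.22 to 1.28 (Cd4) and -0.76 to 0.13 (Trac). In fl/fl against untreated the ranges were -0.65 to 1.88 (Cd3e), -1.21 to 1.44 (Cd3g) and -0.74 to 1.66 (Cd247). For the difference of effects they were -0.28 to 2.47 (Cd4) and -1.98 to 0.37 (Cd5).

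Without both fl/fl libraries, log2 fold changes turned in cKO for Cd3d (3.23), Cd3e (4.62), Cd3g (4.47), Cd247 (1.7), Trac (2.57), Lck (1.91), Cd6 (1.73), Cd4 (1.08) and Cd8a (3.53). In fl/fl against untreated they turned for Cd3d (-3.37), Cd3e (-3.96), Cd3g (-4.23), Cd247 (-3.1), Trac (-2.41), Lck (-1.84), Cd6 (-1.49), Cd4 (-1.16) and Cd8a (-1.01). In fl/fl against isotype all 10 turned, Cd3d (-1.42), Cd3e (-2.87), Cd3g (-2.33), Cd247 (-0.45), Trac (-2.07), Lck (-1.14), Cd6 (-1.67), Cd5 (-0.017), Cd4 (-1.57) and Cd8a (-2.15). Cd6 in isotype against untreated went to 0.18. For the difference of effects the values were 1.5 (Cd3d), 0.84 (Cd3e), 0.55 (Cd3g), 1.47 (Cd247), 0.51 (Trac), 0.58 (Lck) and 0.91 (Cd5).

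With the B cell share, MAR1 values turned for Cd3d (-1.14), Cd247 (-1.69), Trac (-1.04), Lck (-1.35, then called lower) and Cd6 (-0.92), with Cd3e and Cd8a no longer called, and cKO values for Cd3d (0.37), Cd3e (2.11), Cd3g (2.08) and Cd8a (0.61). Isotype values turned for Cd3d (0.89), Cd3e (1.46), Cd3g (0.46), Trac (2.84), Lck (1.79) and Cd6 (2.86), and fl/fl against untreated for Cd3e (-0.19), Cd3g (-0.61) and Cd247 (-0.0012). In fl/fl against isotype they turned for Cd3e (-1.66), Cd3g (-1.06), Trac (-0.27), Cd6 (-0.0059), Cd4 (-0.35) and Cd8a (-0.93). For the difference of effects they were 1.5 (Cd3d), 1.08 (Cd3e), 0.68 (Cd3g), 1.42 (Cd247), 0.51 (Trac), 0.78 (Lck), 0.87 (Cd5) and 0.42 (Cd8a). With the receptor gene share, Lck (-0.85) and Cd8a (-1.34) turned in MAR1 and Cd6 (0.025) and Cd8a (-1.35) in isotype. Cd4 in the difference of effects was -0.15 under RLE scaling and -0.15 under DESeq2. The cause of these changes was not tested.

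MAR1 libraries were the shallowest, where the floor of 3 counts stands at 0.257 to 0.45 CPM, and Cd4 there lies near it. The fl/fl arm without 2 libraries has 1 sample.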
